A study of Mus musculus with 12 samples.

Results

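The 32 genes described here encode enzymes, regulators and carriers of sterol and fatty acid synthesis that are known targets or partners of the SREBP transcription factors. They were chosen by symbol, and all 32 were found among the 55335 entries of the count tables. The list holds 19 enzymes of the sterol arm, 8 enzymes of the fatty acid arm, and 5 regulators and sterol carriers. RNA had been sequenced from mouse small intestinal organoids, epithelial cultures embedded in a basement membrane extract, in 12 libraries, 3 in each of 4 groups. All organoids came from 1 line (line26 wild type), derived from a female mouse with the Lgr5GFPDTR/+ allele, which places GFP and the diphtheria toxin receptor at Lgr5, so every group carries that allele.

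The RANKL and RANKL II organoids were first held for 3 days with 3 µM CHIR99021, which blocks GSK3, and 1.5 mM valproic acid, which blocks histone deacetylases. After 1 day in ENR medium (EGF, Noggin and R-spondin) they were given RANKL, a TNF-family cytokine that induces M cells, at 100 ng/mL for 6 days. The RANKL+CSRM617 organoids had the same course plus CSRM617 at 40 µM, a compound known as an ONECUT2 inhibitor. The ENR control organoids were kept in ENR medium for 6 days. Their sample names begin with CVENR, but the labels do not spell out whether they also had CHIR99021 and valproic acid. A difference between RANKL and ENR control therefore cannot be told apart from a possible difference in that pretreatment. RANKL was compared with ENR control, and RANKL+CSRM617 with RANKL II, in separate count tables that share no library. Where RANKL II is set beside RANKL in the text, the levels come from tables scaled separately.

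Cells make cholesterol from acetyl-CoA through the mevalonate pathway, isoprenoid diphosphates, squalene and lanosterol, and they make long-chain fatty acids from the same precursor through malonyl-CoA. SREBP2, encoded by Srebf2, mainly drives the sterol enzymes, and SREBP1, encoded by Srebf1, mainly drives the fatty acid enzymes. Both precursors are carried by SCAP to the Golgi for cleavage when sterols are low, and INSIG proteins hold them in the endoplasmic reticulum when sterols are high. In the small intestine, epithelial cells make sterols themselves and also take them up from the lumen.

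Totals were 6351155 to 7719157 counts per library in RANKL and 5795541 to 7577492 in ENR control. They were 10225102 to 14041947 in RANKL+CSRM617 and 8669153 to 11241811 in RANKL II. The 7 epithelial markers summed to 3118 to 3225 CPM (counts scaled to library size) in RANKL, 3264 to 3400 CPM in ENR control, 4299 to 4495 CPM in RANKL+CSRM617 and 3596 to 3634 CPM in RANKL II. The 5 stromal and endothelial markers summed to at most 1.12 CPM in any library, with Col1a2, Col3a1 and Dcn at 0. Of 4 adipocyte and hepatocyte markers, Adipoq and Alb were at 0 in every library, and Plin1 had at most 0.113 CPM. The fourth, Ttr, was expressed in all groups. It averaged 37.02 CPM in RANKL, 22.4 CPM in ENR control, 69.5 CPM in RANKL+CSRM617 and 84.91 CPM in RANKL II. Loci that collect ribosomal RNA reads took 9.71% to 10.7% of counts in RANKL against 21.9% to 35.5% in ENR control, and 15.3% to 15.8% in RANKL+CSRM617 against 6.44% to 6.71% in RANKL II. Mitochondrially encoded genes took 2.52% to 2.89% in RANKL against 5.43% to 7.96% in ENR control, and 8.61% to 11.04% in RANKL+CSRM617 against 6.04% to 6.11% in RANKL II. The part of these shares in the results was not tested. The mean chi-square per gene between replicates, which counting noise alone puts at about 1, was 2.43 to 4.67 in RANKL, 6.75 to 42.3 in ENR control and 1.11 to 1.49 in RANKL II. ENR control replicate 2 stood apart (20.8 and 42.3 against the others), as did RANKL+CSRM617 replicate 3 (5.75 and 4.94, where replicates 1 and 2 gave 1.195).

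Promoters give the sequence context of the 32 genes. RefSeq promoter windows on GRCm38.p6, 250 bases before and 50 after each start, were matched for 26 of the 32 genes, and 4 motifs were searched on both strands. The sterol regulatory element (SRE), the SREBP site, was searched as TCACNCCAC, the E-box as CACGTG, the NF-Y box as CCAAT and the Sp1 GC box as GGGCGG. Capitals mark the SRE and the NF-Y box, which reads ATTGG where it lies on the other strand, in the 250 upstream bases that follow. Hmgcs1 (chr13:119690101-119690350, plus strand) is shown as the single gene of the 26 with an SRE. Mvd (chr8:122443423-122443672, minus strand), Msmo1 (chr8:64733579-64733828, minus strand) and Fasn (chr11:120824548-120824797, minus strand) have none. They were chosen after their values were seen, to show promoters of 2 further sterol enzymes and of the fatty acid synthase.
Hmgcs1: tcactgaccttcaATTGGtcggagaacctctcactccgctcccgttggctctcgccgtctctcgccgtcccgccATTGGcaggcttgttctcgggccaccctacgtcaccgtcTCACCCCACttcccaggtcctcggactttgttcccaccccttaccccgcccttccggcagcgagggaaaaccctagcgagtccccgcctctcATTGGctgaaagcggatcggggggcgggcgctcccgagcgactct
Mvd: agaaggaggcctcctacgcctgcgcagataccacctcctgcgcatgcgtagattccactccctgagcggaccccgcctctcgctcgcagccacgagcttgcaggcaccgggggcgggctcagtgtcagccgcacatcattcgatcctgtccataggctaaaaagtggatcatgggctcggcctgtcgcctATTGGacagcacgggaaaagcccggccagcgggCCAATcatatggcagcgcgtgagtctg
Msmo1: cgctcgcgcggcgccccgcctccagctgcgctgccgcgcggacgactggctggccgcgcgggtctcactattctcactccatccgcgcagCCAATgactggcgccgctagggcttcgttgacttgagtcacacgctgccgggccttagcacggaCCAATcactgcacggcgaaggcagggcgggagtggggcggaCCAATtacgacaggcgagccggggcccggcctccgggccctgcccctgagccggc
Fasn: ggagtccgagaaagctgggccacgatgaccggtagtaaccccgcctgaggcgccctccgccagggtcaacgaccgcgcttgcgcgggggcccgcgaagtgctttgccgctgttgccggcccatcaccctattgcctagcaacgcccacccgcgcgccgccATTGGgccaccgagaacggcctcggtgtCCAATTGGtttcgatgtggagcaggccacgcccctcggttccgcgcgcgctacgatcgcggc

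The SRE of Hmgcs1 spans bases -137 to -129 from the RefSeq start. In Fasn an NF-Y box on the sense strand (-62 to -58) overlaps one on the other strand (-59 to -55), so the capitals run together. The NF-Y box was present in 22 of 26 genes (84.6%), against 41.1% of all 27025 genes with a promoter window. It was in 15 of 16 genes of the sterol arm, 4 of 6 of the fatty acid arm and 3 of 4 regulators and carriers. The GC box was present in 21 of 26 (80.8%) against 38.2%, and the E-box in 5 of 26 (19.2%) against 8.09%. In the fatty acid arm the GC box was in 3 of 6 genes (50.0%) and the E-box in 0 of 6. The sterol arm had them in 14 and 3 of 16 genes, and the regulators and carriers in 4 and 2 of 4. The SRE was present in 1 of 26 against 1.44%. Among the 9973 genes tested in either comparison that had a window, a background added after the values were seen, the shares were 43.4% for the NF-Y box, 67.8% for the GC box, 11.7% for the E-box and 1.41% for the SRE. These matches describe letters in a short window, and an SRE may lie outside it or differ from the letters searched.

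RANKL organoids expressed most of the sterol and fatty acid synthesis genes at higher levels than ENR control organoids. All 32 genes passed the filter on low counts, and 23 rose and 2 fell (edgeR quasi-likelihood test, adjusted p under 0.05), where 28.7% of the 13570 genes tested were called higher and 28.0% lower (56.7% in either direction). In the sterol arm 16 of 19 rose and 3 did not pass. In the fatty acid arm 5 of 8 rose, Acss2 fell, and Acly and Fasn did not pass. Of the regulators and carriers, Insig1 and Stard4 rose, Scap fell, and Srebf1 and Srebf2 did not pass. The median log2 fold change was 0.86 in the sterol arm, 0.67 in the fatty acid arm and 0.13 among the 5 regulators and carriers, beside 0.00 over all genes tested, and the plot of fold changes gives each gene. Without ENR control replicate 2, 21 were called higher and 3 lower. Overlap between groups is given per gene below, but the share of all genes without overlap was not computed.

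**Figure D1:**
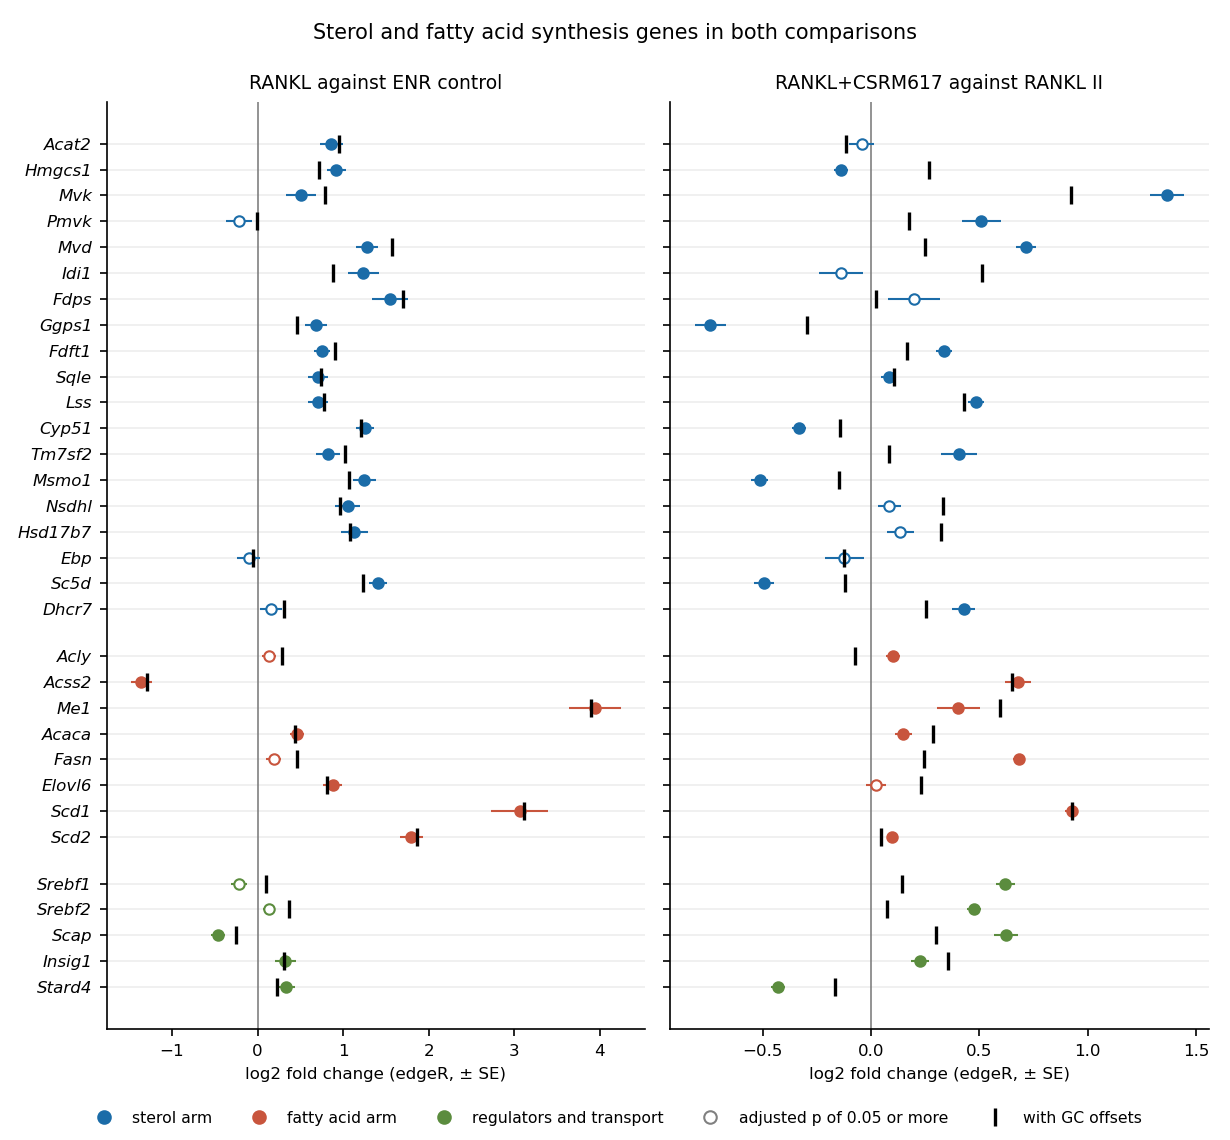
Log2 fold change of each of the 32 genes (points ± SE from edgeR, open where the adjusted p was 0.05 or more) in RANKL against ENR control (left) and RANKL+CSRM617 against RANKL II (right); the x axes differ in scale, and black ticks give the value after a GC correction per library. On the left 16 of the 19 sterol enzymes are called to the right of 0, and on the right 8 are called above and 5 below it.

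The first enzymes of the mevalonate pathway were higher with RANKL, except for one kinase. Acat2, which condenses acetyl-CoA, had 65.6, 53.3 and 43.1 CPM in RANKL against 28.8, 32.4 and 27.4 CPM in ENR control. Hmgcs1, which makes HMG-CoA, had 245, 229 and 198 CPM in RANKL against 104, 140 and 109 CPM in ENR control. Both sets of libraries were apart, with log2 fold changes of 0.86 ± 0.14 (SE, edgeR adjusted p = 7.06e-05) for Acat2 and 0.92 ± 0.11 (adjusted p = 4.59e-06) for Hmgcs1. Mvd, which makes isopentenyl diphosphate, had 68.5, 63.7 and 50.8 CPM in RANKL against 22.7, 23.9 and 29.7 CPM in ENR control. Its 3 RANKL libraries lay above all 3 controls (log2 1.28 ± 0.13, edgeR adjusted p = 6.47e-07). Mvk, mevalonate kinase, had 28.8, 23.1 and 18.1 CPM in RANKL against 18.4, 13.1 and 19.0 CPM in ENR control, and the groups overlapped. Its call (log2 0.51 ± 0.18, edgeR adjusted p = 0.0218) was lost without RANKL replicate 1 (log2 0.33, adjusted p = 0.139) and without ENR control replicate 2 (log2 0.33, adjusted p = 0.127). Pmvk, the kinase that follows it, had a log2 fold change of -0.22 ± 0.15 and did not pass (edgeR adjusted p = 0.228).

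The isoprenoid and squalene steps were all called higher. Idi1, the isopentenyl diphosphate isomerase, had 15.04, 14.7 and 13.95 CPM in RANKL against 5.57, 7.73 and 4.57 CPM in ENR control. Fdps, which makes farnesyl diphosphate, had 14.9, 14.6 and 9.88 CPM in RANKL against 5.38, 4.26 and 3.88 CPM in ENR control. The RANKL libraries of both genes stood above all controls, and these low levels rested on 367 and 335 counts in RANKL and 107 and 77 in ENR control. Log2 fold changes were 1.24 ± 0.18 for Idi1 (edgeR adjusted p = 2.85e-05) and 1.55 ± 0.21 for Fdps (adjusted p = 1.48e-05), and the value of Fdps was the highest in the sterol arm. Over the alternative settings it ran from 0.96 to 1.71 for Fdps and from 0.86 to 1.50 for Idi1. Ggps1, which makes geranylgeranyl diphosphate for protein prenylation, rose by 0.68 ± 0.13 on the log2 scale (edgeR adjusted p = 0.000258). Fdft1, squalene synthase, Sqle, squalene epoxidase, and Lss, lanosterol synthase, rose by 0.76 ± 0.10, 0.71 ± 0.12 and 0.70 ± 0.12, with no overlap between groups.

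Enzymes that turn lanosterol into cholesterol gave some of the largest and also the smallest sterol differences. Sc5d, a sterol desaturase, had 90.7, 88.7 and 76.9 CPM in RANKL against 32.3, 35.7 and 27.9 CPM in ENR control. Cyp51, the lanosterol demethylase, had 187, 187 and 152 CPM in RANKL against 67.2, 83.03 and 68.5 CPM in ENR control. Msmo1, a sterol methyl oxidase, had 129, 132 and 96.0 CPM in RANKL against 49.1, 58.6 and 41.1 CPM in ENR control. All RANKL libraries lay above all controls for these 3 genes, with log2 fold changes of 1.41 ± 0.11, 1.26 ± 0.11 and 1.25 ± 0.14 (edgeR adjusted p = 2.32e-08, 7.62e-08 and 2.35e-06). Nsdhl and Hsd17b7, which act with Msmo1 in removing the methyl groups, rose by 1.05 ± 0.15 and 1.13 ± 0.16, and the sterol reductase Tm7sf2 rose by 0.82 ± 0.14. The isomerase Ebp (log2 -0.10 ± 0.14, edgeR adjusted p = 0.547) and the last reductase of its branch, Dhcr7 (log2 0.16 ± 0.13, adjusted p = 0.315), did not pass, and their groups overlapped. Dhcr7 was called higher under 1 alternative, the GC correction described below together with a replicate block (0.315, adjusted p = 0.0250 by edgeR).

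The fatty acid arm held both the largest rises and the only enzyme of both arms called lower, Acss2. Scd1, which introduces the double bond of oleic acid, had 357, 291 and 159 CPM in RANKL against 31.7, 32.4 and 32.5 CPM in ENR control. RANKL replicate 3 was well below the others of its group, yet stood above every control (log2 3.06 ± 0.33, edgeR adjusted p = 0.000375). Scd2, its neighbour on chromosome 19 (GENCODE positions on GRCm38 are chr19:44394455-44407879 for Scd1 and chr19:44293674-44306864 for Scd2), had 2142, 2076 and 1559 CPM in RANKL against 486, 662 and 516 CPM in ENR control (log2 1.80 ± 0.13, adjusted p = 6.96e-08 by edgeR). Scaled to exon length, Scd2 was the more abundant desaturase, with mean levels of 352 CPM per kb in RANKL and 101 CPM per kb in ENR control, where Scd1 had 54.9 and 6.58 CPM per kb. Me1, malic enzyme, which supplies NADPH, had 13.9, 12.4 and 9.21 CPM in RANKL against 0.576, 0.800 and 0.914 CPM in ENR control. That is a log2 fold change of 3.94 ± 0.30 (edgeR adjusted p = 2.25e-08) on 302 counts in RANKL and 13 in ENR control. Over the alternative settings the value for Me1 ran from 1.72 to 4.08, so its size is uncertain.

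The other fatty acid enzymes moved less or the other way. Elovl6, which elongates palmitic acid, rose by 0.88 ± 0.11 on the log2 scale (edgeR adjusted p = 8.81e-06), and Acaca, acetyl-CoA carboxylase, by 0.46 ± 0.08 (adjusted p = 0.000148). Acss2, which makes acetyl-CoA from acetate, fell to 38.6, 32.7 and 26.3 CPM in RANKL, against 77.8, 87.6 and 85.5 CPM in ENR control (log2 -1.36 ± 0.12, edgeR adjusted p = 1.13e-07), with no overlap. Fasn, the fatty acid synthase itself, had 538, 504 and 453 CPM in RANKL against 415, 427 and 471 CPM in ENR control, and RANKL replicate 3 lay below the highest control. Fasn did not pass (log2 0.19 ± 0.09, edgeR adjusted p = 0.0730), but did without RANKL replicate 3 (0.25, adjusted p = 0.0352), without ENR control replicate 3 (0.24, adjusted p = 0.0444) and with the stricter count filter (0.21, adjusted p = 0.0445). Acly, which makes cytosolic acetyl-CoA from citrate, had 268, 251 and 224 CPM in RANKL against 213, 237 and 228 CPM in ENR control and did not pass (log2 0.13 ± 0.09, edgeR adjusted p = 0.199). The plot of the fatty acid arm shows these levels.

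**Figure D2:**
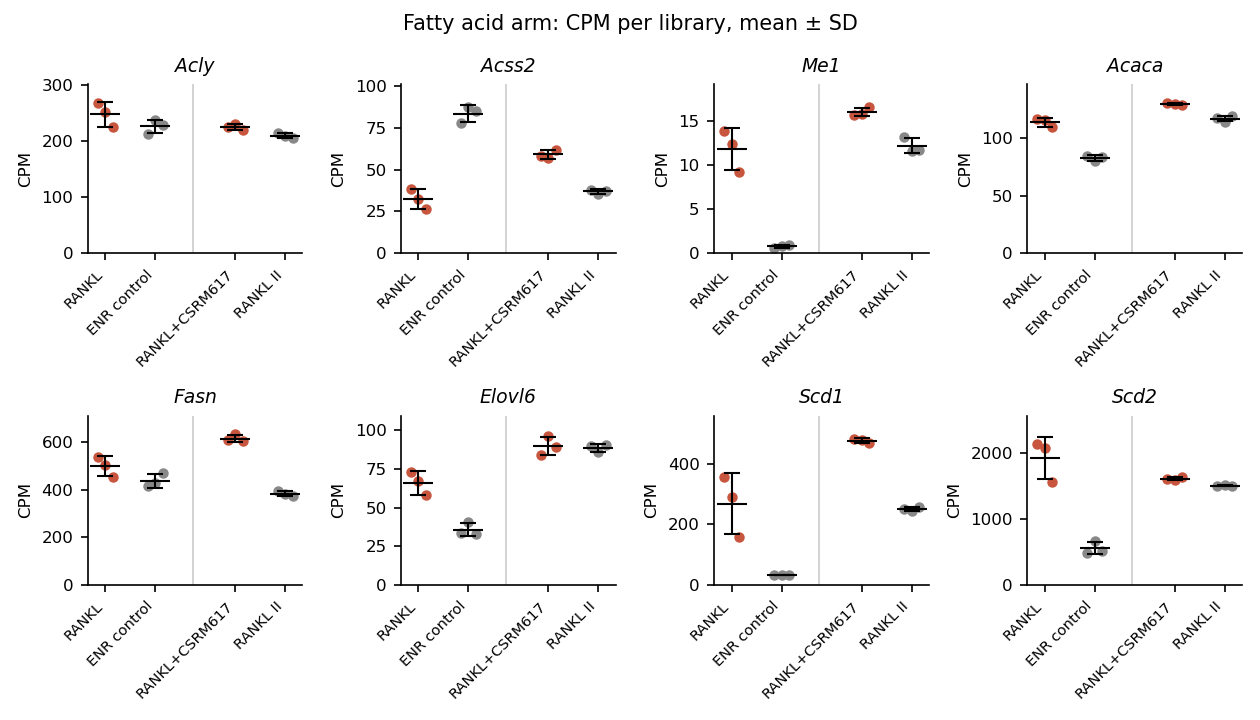
CPM of the 8 fatty acid enzymes in each library (points), with mean ± SD (black bars, n = 3), for RANKL and ENR control and, right of the grey line, RANKL+CSRM617 and RANKL II, which come from a table scaled separately. Scd1 lies between 159 and 357 CPM in RANKL and near 32 CPM in ENR control, while Acss2 is below its controls in RANKL and above RANKL II with CSRM617.

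The transcripts of the SREBPs themselves did not pass in this comparison. Srebf2 had 286, 277 and 267 CPM in RANKL against 246, 253 and 258 CPM in ENR control, groups that were apart by little (log2 0.13 ± 0.07, edgeR adjusted p = 0.142). Srebf1 had 113, 102 and 92.1 CPM in RANKL against 124, 106 and 129 CPM in ENR control, with overlap (log2 -0.22 ± 0.10, adjusted p = 0.0718 by edgeR). It was called lower without RANKL replicate 1 (log2 -0.30, adjusted p = 0.0367), without ENR control replicate 2 (log2 -0.31, adjusted p = 0.00215) and with upper-quartile factors (log2 -0.23, adjusted p = 0.0473). Scap fell to 54.3, 55.6 and 56.6 CPM in RANKL, against 73.9, 74.8 and 81.1 CPM in ENR control (log2 -0.46 ± 0.08, edgeR adjusted p = 0.000239). Insig1 had 87.2, 67.9 and 59.99 CPM in RANKL against 54.7, 59.8 and 57.4 CPM in ENR control, groups that all but touched. Its call (log2 0.32 ± 0.12, edgeR adjusted p = 0.0301) was lost without RANKL replicate 1 (log2 0.16, adjusted p = 0.233), without each of the 3 controls (adjusted p = 0.0628 to 0.111) and with DESeq2 (adjusted p = 0.0534). Stard4, which carries cholesterol between membranes, had 219, 225 and 211.5 CPM in RANKL against 149, 212.4 and 159 CPM in ENR control, with overlap (log2 0.33 ± 0.11, edgeR adjusted p = 0.0187). Its call was lost without RANKL replicate 2 (adjusted p = 0.0673), ENR control replicate 1 (adjusted p = 0.1302) or ENR control replicate 3 (adjusted p = 0.0792), so neither gene was called without either of these controls.

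The RANKL libraries differed among themselves. RANKL replicate 1 was the highest of its group in 26 of 32 genes and RANKL replicate 3 the lowest in 29 of 32, among them all 8 fatty acid enzymes, as the map of library levels shows. How often this order held over all genes was not computed, so it may not be particular to the 32. In bulk samples a lower share of cells of a type and less RNA per cell cannot be told apart. Mature enterocyte markers summed to 2494 to 3479 CPM in RANKL against 1014 to 1173 CPM in ENR control, with 5 of 8 called higher and 3 lower. All 8 M cell markers were called higher (1037 to 1064 CPM in RANKL against 76.6 to 79.8 CPM in ENR control), and 5 of 7 proliferation markers were called lower (1051 to 1280 CPM in RANKL against 1573 to 1633 CPM in ENR control). Stem cell markers summed to 518.5 to 766 CPM in RANKL against 1721 to 2128 CPM in ENR control, with 1 of 5 called higher and 3 lower. Goblet cell markers summed to 1918 to 2769 CPM in RANKL against 994 to 1049 CPM in ENR control (3 of 5 higher, 1 lower), and Paneth cell markers to 369.9 to 386 CPM in RANKL against 523 to 891 CPM in ENR control (1 of 6 higher, 5 lower). Beside these counts, 28.7% of all genes tested were called higher and 28.0% lower (56.7% in either direction). The part of cell composition in the differences above was not tested.

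**Figure D3:**
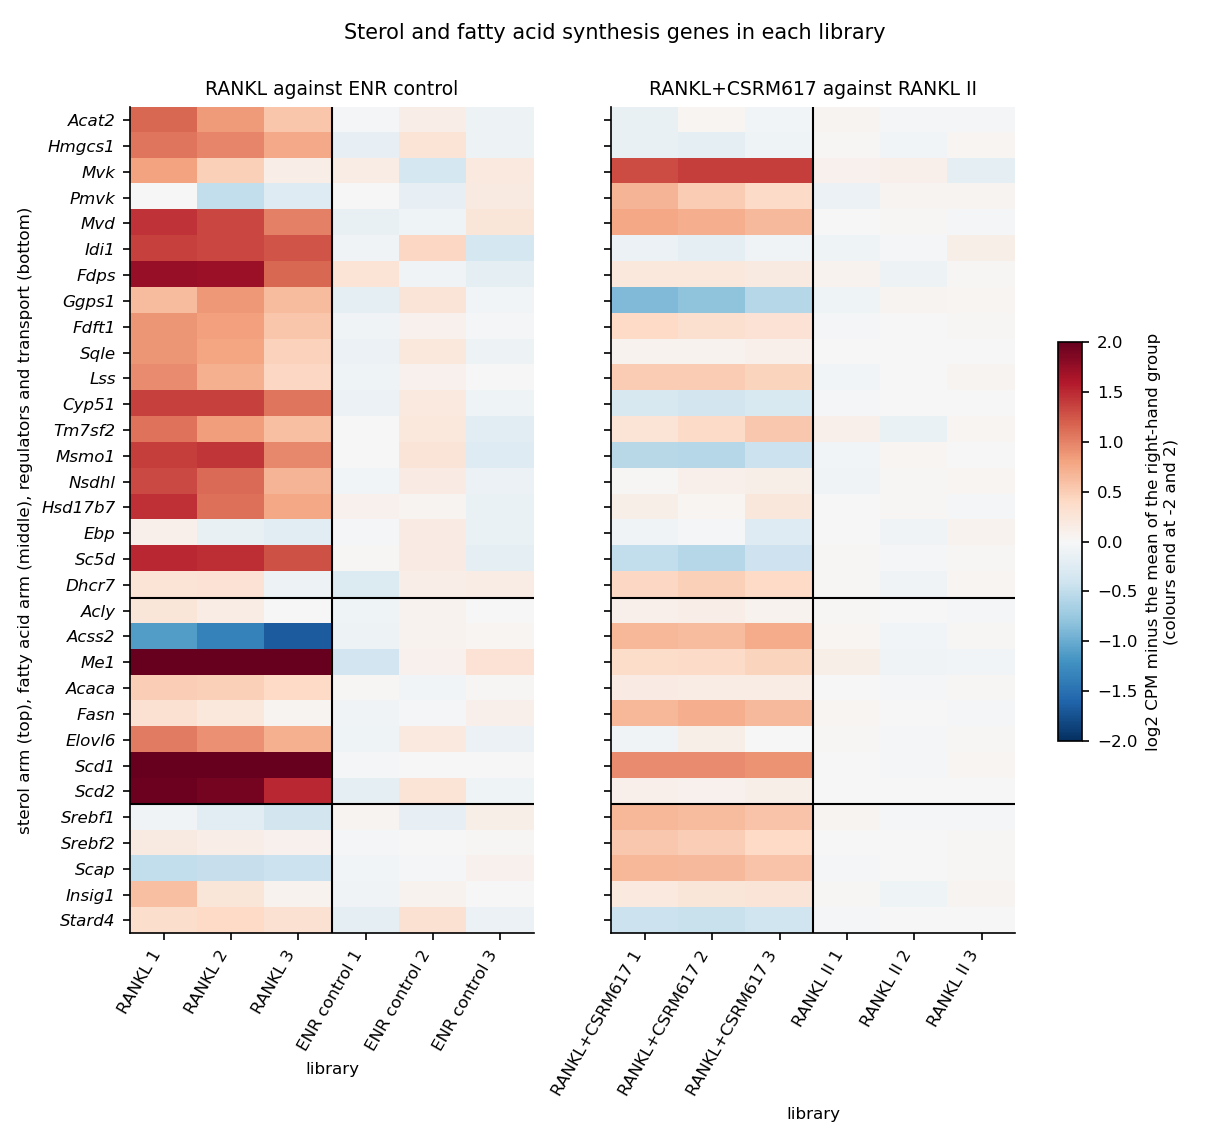
Level of each gene in each library as log2 CPM minus the mean of the right-hand group of its panel (ENR control on the left, RANKL II on the right; colours end at -2 and 2). RANKL replicate 3 is paler than RANKL replicate 1 in most rows, and the RANKL+CSRM617 panel mixes red and blue rows within the sterol arm.

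Neighbouring pathways did not all go with the synthesis genes in RANKL against ENR control. Over all genes tested, 28.7% were called higher and 28.0% lower (56.7% in either direction). Of 18 further lipogenic and SREBP-related genes, 12 rose, 2 fell and 4 (Elovl1, Mid1ip1, Acsl5 and Slc25a1, log2 -0.12 to 0.23) did not pass, with a median log2 fold change of 0.49. Acsl4, an acyl-CoA synthetase, rose by 1.73 ± 0.14 and the phosphatidate phosphatase Lpin1 by 1.40 ± 0.12, whereas Mlxipl, the carbohydrate-responsive factor ChREBP, fell by 1.26 on the log2 scale. Of 10 genes of SREBP processing and sterol sensing, 3 rose and 4 fell, while Rnf139 (log2 0.10) and Erlin2 (log2 -0.03) did not pass. Insig2 and Vcp rose by 0.74 ± 0.15 and 0.47 ± 0.10, and Erlin1, part of a sterol-sensing complex, fell by 0.77. With the GC correction described below, 2 of these 10 were higher and 2 lower, 40.0% called against 53.5% of all genes tested. Of 11 tested genes of the liver X receptor and sterol efflux list 1 rose, 7 fell and 3 (Npc2, Osbp and Lipa, log2 -0.08 to 0.05) did not pass. Nceh1, a cholesteryl ester hydrolase, was the one that rose (1.61 ± 0.11), while Soat1, which esterifies cholesterol, and the lipoprotein receptor Scarb1 fell by 1.03 and 0.97. With that correction, 1 of these 11 was called higher and 3 lower, 36.4% called, again below the share of all genes. Of 12 genes that use isoprenoid diphosphates for ubiquinone, dolichol and prenylation, 2 rose and 7 fell, among them Pdss1 (-1.86 ± 0.10) and Coq2 (-0.74 ± 0.09) of ubiquinone synthesis, while Pggt1b, a subunit of a protein prenylation enzyme, rose by 0.71 ± 0.09. Rabggtb, Nus1 and Pdss2 of that list did not pass (log2 -0.17 to 0.17).

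The arms were also compared by the mean of log2(CPM + 0.5) over their genes in each library, where only the change between groups is read because the genes differ in length. No GC correction was applied to these means. The sterol arm averaged 5.70 ± 0.20 in RANKL and 4.88 ± 0.10 in ENR control (SD, n = 3). The fatty acid arm averaged 7.17 ± 0.24 in RANKL and 6.12 ± 0.08 in ENR control (SD, n = 3). Sterol minus fatty acid was -1.48, -1.48 and -1.42 in the 3 RANKL libraries against -1.20, -1.21 and -1.33 in the 3 ENR control libraries, so the fatty acid mean was further above the sterol mean in every RANKL library. By the median gene the order was the other way, 0.86 in the sterol arm and 0.67 in the fatty acid arm, and Me1 and Scd1, at 3.94 and 3.06, weigh on the fatty acid mean. Within the fatty acid arm log2 fold changes ran from -1.36 to 3.94, and within the sterol arm from -0.22 to 1.55.

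In RANKL+CSRM617 organoids sterol enzymes were called both higher and lower than in RANKL II organoids, and most fatty acid enzymes were called higher. Of the 32 genes 19 rose and 6 fell (edgeR, adjusted p under 0.05), where 35.2% of the 14167 genes tested were called higher and 36.2% lower. Called in either direction were 78.1% of the 32 genes and 71.4% of all genes tested. In the sterol arm 8 of 19 rose, 5 fell and 6 did not pass, 68.4% called. In the fatty acid arm 7 of 8 rose and Elovl6 did not pass, but Acly was called lower with the GC correction described below. Of the regulators and carriers, 4 of 5 rose and Stard4 fell. The median log2 fold change was 0.09 in the sterol arm, 0.28 in the fatty acid arm and 0.47 among regulators and carriers, beside -0.02 over all genes tested. Without RANKL+CSRM617 replicate 3, 18 were called higher and 6 lower. Log2 differences as small as 0.08 (Sqle) passed. Here too the share of all genes without overlap between groups was not computed, so a lack of overlap may be common.

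Fold changes in this comparison followed the GC content of the transcripts. Across the 13986 genes with a GC value, Spearman's rho between log2 fold change and GC content was 0.58, and it was 0.79 over the 32 genes and 0.86 over the 19 sterol enzymes, as a description across genes. The 5 genes under 45% GC, Ggps1, Msmo1, Sc5d, Idi1 and Hmgcs1, had a median log2 fold change of -0.49, and all 3472 genes under 45% had -0.57. The 8 genes at 55% or more had a median of 0.62, and all 3022 such genes had 0.45. In RANKL against ENR control the relation ran the other way (rho -0.32 over 13404 genes and -0.42 over the 32). Fold changes were therefore also computed with a GC correction per library (edgeR offsets), after which rho was 0.01 over all genes and 0.09 over the 32 in the CSRM617 comparison. What sets the GC trend was not tested.

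**Figure D4:**
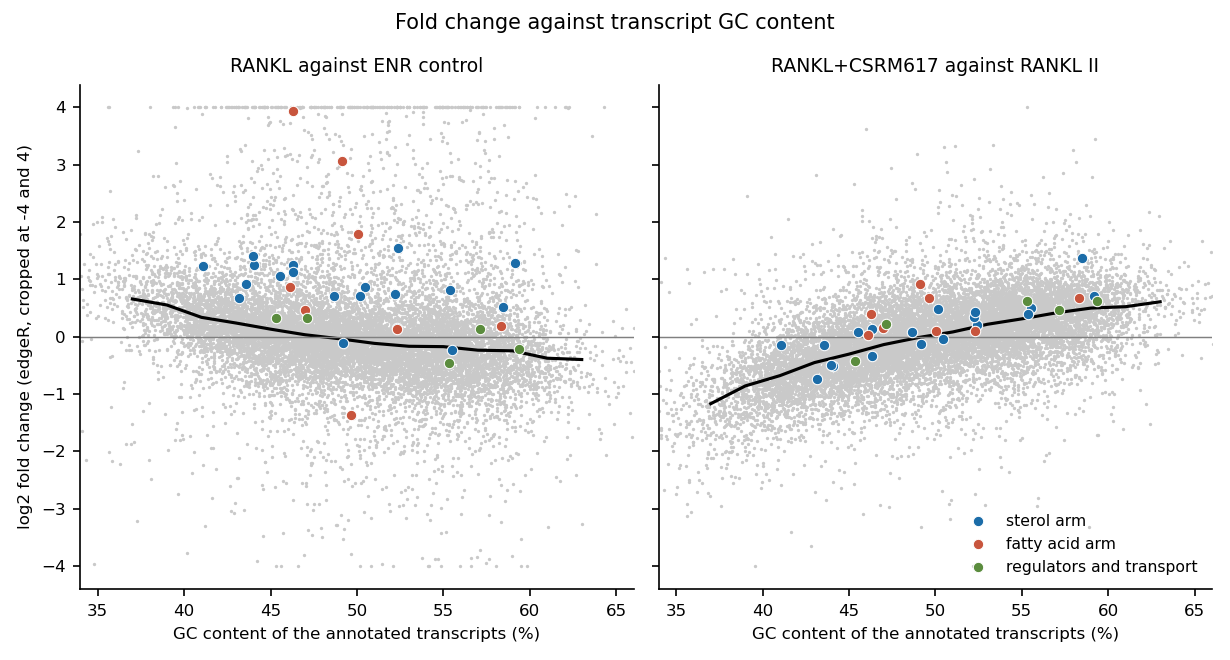
Log2 fold change of each tested gene (grey, cropped at -4 and 4) against transcript GC content, with the running median in bins (black) and the 3 gene groups in colour, for RANKL against ENR control (left) and RANKL+CSRM617 against RANKL II (right). On the right the sterol enzymes lie along the rising median (rho 0.86 over 19 genes), and on the left most lie above the falling one.

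With the correction, RANKL against ENR control gave 26 of 32 genes higher and 2 lower, where 27.6% of all genes were higher and 25.9% lower (53.5% in either direction). The sterol arm again had 16 of 19 higher, with a median of 0.90. Acly, Fasn and Srebf2, not called without it, passed at log2 0.28 ± 0.08, 0.46 ± 0.08 and 0.37 ± 0.07 (edgeR adjusted p = 0.00559, 7.74e-05 and 0.000321), which made 7 of 8 fatty acid enzymes higher. In RANKL+CSRM617 against RANKL II it gave 21 of 32 higher and 6 lower, where 32.9% of all genes were higher and 30.8% lower (63.6% in either direction). There the sterol arm had 10 higher and 4 lower with a median of 0.17, and the fatty acid arm 7 higher and 1 lower with a median of 0.27.

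Among the mevalonate enzymes Mvk and Mvd were called higher with CSRM617 with and without the correction. Mvk had 38.8, 40.7 and 40.8 CPM in RANKL+CSRM617 against 16.6, 16.8 and 13.9 CPM in RANKL II. Every RANKL+CSRM617 library stood far above RANKL II, at log2 1.37 ± 0.08 (edgeR adjusted p = 6.33e-20) and 0.92 with the GC correction, the largest of the 32 without it. Mvd had 103, 99.6 and 95.4 CPM in RANKL+CSRM617 against 60.8, 61.3 and 59.4 CPM in RANKL II (log2 0.72 ± 0.05, edgeR adjusted p = 1.14e-17), which shrank to 0.25 with the correction. Pmvk was called higher (0.51 ± 0.09), but not with the correction (0.18, edgeR adjusted p = 0.06001). Hmgcs1 had 265, 256 and 275 CPM in RANKL+CSRM617 against 296, 282 and 299 CPM in RANKL II. It was called lower (log2 -0.14 ± 0.03, edgeR adjusted p = 0.000159) and, with the correction, higher (0.27, adjusted p = 1.03e-23), so its direction rests on that choice. Acat2 did not pass with or without it (log2 -0.04 ± 0.06 and -0.12 with it, edgeR adjusted p = 0.522 and 0.0623).

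Among the isoprenoid and later sterol enzymes, 4 stayed lower with CSRM617 after the correction. Ggps1 fell to 23.6, 24.7 and 29.0 CPM in RANKL+CSRM617, against 40.7, 44.8 and 44.4 CPM in RANKL II (log2 -0.74 ± 0.07, edgeR adjusted p = 1.59e-12, -0.30 with the correction). Msmo1 fell to 110, 108 and 120 CPM in RANKL+CSRM617, against 155, 166 and 162 CPM in RANKL II (log2 -0.51 ± 0.04, edgeR adjusted p = 2.92e-15, -0.15 with the correction). Sc5d and Cyp51 fell by 0.49 and 0.33 on the log2 scale, or by 0.12 and 0.14 with the correction. In CPM without the correction none of these 4 had overlapping groups. Their corrected falls were at most 0.30 in log2.

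Other steps rose or did not pass. Lss had 174, 174 and 166 CPM in RANKL+CSRM617 against 117, 122 and 126 CPM in RANKL II (log2 0.49 ± 0.04, edgeR adjusted p = 2.21e-15), and 0.43 with the correction. Fdft1 and Dhcr7 rose by 0.34 ± 0.04 and 0.43 ± 0.05, and by 0.17 and 0.26 with the correction. Tm7sf2 rose by 0.41 ± 0.08, a call lost with the correction (0.08, edgeR adjusted p = 0.375). Sqle, at 0.08 ± 0.04 (edgeR adjusted p = 0.0460), lost its call under 9 of 16 alternatives, among them DESeq2 (adjusted p = 0.140), limma (adjusted p = 0.0514) and the removal of RANKL+CSRM617 replicate 3 or of any RANKL II library (adjusted p = 0.0511 to 0.107). Idi1, Nsdhl and Hsd17b7 did not pass (log2 -0.14 ± 0.10, 0.09 ± 0.05 and 0.14 ± 0.06), but were called higher with the correction (0.51, 0.33 and 0.33). Hsd17b7 also passed without RANKL+CSRM617 replicate 1 (adjusted p = 0.0453 by edgeR) or replicate 2 (adjusted p = 0.0123). Fdps (0.20 ± 0.12) and Ebp (-0.12 ± 0.09) did not pass either way.

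Most fatty acid enzymes were higher with CSRM617. Scd1 had 484, 482 and 469 CPM in RANKL+CSRM617 against 251, 245 and 259 CPM in RANKL II. The groups were far apart (log2 0.93 ± 0.03, edgeR adjusted p = 5.53e-29), and the value was 0.93 with the correction too. Fasn had 609, 632 and 603 CPM in RANKL+CSRM617 against 393, 383 and 373 CPM in RANKL II (log2 0.68 ± 0.03, edgeR adjusted p = 6.02e-25), and 0.24 with the correction. Acss2 had 58.4, 57.0 and 62.0 CPM in RANKL+CSRM617 against 37.9, 35.5 and 37.4 CPM in RANKL II (log2 0.68 ± 0.06, edgeR adjusted p = 6.87e-14), and 0.65 with the correction. None of these 3 genes had overlapping groups in CPM without the correction, a trait not counted over all genes. Me1 rose by 0.40 ± 0.10 and Acaca by 0.15 ± 0.04, values of 0.60 and 0.29 with the correction. Scd2 rose by 0.10 ± 0.02, with 1609, 1595 and 1637 CPM in RANKL+CSRM617 against 1497, 1518 and 1507 CPM in RANKL II, beside 0.93 for Scd1; the difference between these genes was not tested. Acly was called higher by 0.10 ± 0.03 (edgeR adjusted p = 0.00651), lower with the correction (-0.07, adjusted p = 0.0159), and not with upper-quartile factors (0.06, adjusted p = 0.116). Elovl6 (0.02 ± 0.05, edgeR adjusted p = 0.657) was called higher only with the correction (0.23).

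Of the regulators and carriers 4 of 5 were higher with CSRM617, and 3 of them by less after the correction. Srebf1 had 133, 131 and 125 CPM in RANKL+CSRM617 against 87.7, 82.7 and 82.9 CPM in RANKL II (log2 0.62 ± 0.04, edgeR adjusted p = 2.69e-17). Srebf2 had 379, 367 and 344 CPM in RANKL+CSRM617 against 260, 260 and 264 CPM in RANKL II (log2 0.47 ± 0.03, edgeR adjusted p = 2.75e-17). Scap had 66.2, 65.3 and 61.9 CPM in RANKL+CSRM617 against 40.9, 41.9 and 42.5 CPM in RANKL II (log2 0.62 ± 0.06, edgeR adjusted p = 1.98e-13). None of these 3 had overlapping groups in CPM without the correction. All 3 transcripts are rich in GC, and their corrected values were 0.15, 0.07 and 0.30. Insig1 rose by 0.23 ± 0.04, and by 0.35 with the correction. Stard4 fell to 180, 178 and 184 CPM in RANKL+CSRM617, against 240, 244 and 244 CPM in RANKL II (log2 -0.43 ± 0.03, edgeR adjusted p = 9.15e-16, -0.16 with the correction), again without overlap.

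Neighbouring lists were mixed in this comparison, where 35.2% of all genes tested were called higher and 36.2% lower. With the GC correction these shares were 32.9% and 30.8% (63.6% in either direction). Called in either direction with it were 88.9% of the lipogenic list and 90.0% of the processing list. The share was 90.9% in the liver X receptor list and 50.0% among isoprenoid users. Of the 18 further lipogenic genes 9 rose, 7 fell and 2 (Mid1ip1 at 0.06 and Slc25a1 at 0.01) did not pass, with Mlxipl (0.82 ± 0.03) and Dgat1 (0.82 ± 0.04), which makes triglyceride, higher and the elongase Elovl7 lower (-1.01 ± 0.05). With the correction 8 were higher and 8 lower, among them Mid1ip1 (-0.32) and Slc25a1 (-0.47), and the median log2 fold change was -0.04, against 0.19 without it. Mlxipl, Dgat1 and Elovl7 then had 0.40, 0.52 and -0.53, and Acsl4 was called lower without the correction (-0.53) and higher with it (0.36). Of the 10 processing genes 2 rose and 6 fell, while Ubxn8 (log2 0.08) did not pass. The largest falls were those of the SREBP protease gene Mbtps2 (-1.08 ± 0.07), Rnf139 (-1.34 ± 0.10) and Insig2 (-0.84 ± 0.08). With the correction these values were -0.51, -0.68 and -0.68, Ubxn8 was called higher (0.41), and 3 of the list were higher and 6 lower. Of the 11 tested genes of the liver X receptor list 5 rose, 2 fell and 4 (Lpcat3, Npc2, Scarb1 and Lipa, log2 -0.08 to 0.09) did not pass. Soat2 rose (1.08 ± 0.06), while Soat1 (-1.10 ± 0.05) and Nceh1 (-0.91 ± 0.05) fell, and with the correction 6 were higher and 4 lower. Of the 12 isoprenoid users Rabggta rose (0.54 ± 0.08), 6 fell, among them Nus1 (-0.55 ± 0.06) and Pggt1b (-0.37 ± 0.05), and 5 (Fntb, Dhdds, Pdss2, Dolk and Icmt, log2 -0.24 to 0.09) did not pass. With the correction 0 of the 12 were higher and 6 lower. Rabggta, Nus1 and Pggt1b were then not called, while Fntb (-0.54), Dolk (-0.37) and Icmt (-0.19) were called lower. All 8 mature enterocyte markers were called higher, summing to 9258 to 9582 CPM in RANKL+CSRM617 against 3678 to 3737 CPM in RANKL II. Proliferation markers summed to 596 to 618 CPM in RANKL+CSRM617 against 375 to 385 CPM in RANKL II, with 5 of 7 called higher and 2 lower. M cell markers summed to 1040 to 1058 CPM in RANKL+CSRM617 against 1084 to 1102 CPM in RANKL II, with 3 of 8 called higher and 4 lower. Paneth cell markers summed to 845 to 869 CPM in RANKL+CSRM617 against 552 to 565 CPM in RANKL II (5 of 6 higher, 1 lower), and goblet cell markers to 3744 to 3916 CPM in RANKL+CSRM617 against 2756 to 2832 CPM in RANKL II (3 of 5 higher, 2 lower). The part of these cell types in the results was not tested.

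By arm means of log2(CPM + 0.5), the sterol arm averaged 5.84 ± 0.02 in RANKL+CSRM617 and 5.72 ± 0.02 in RANKL II (SD, n = 3). The fatty acid arm averaged 7.51 ± 0.01 in RANKL+CSRM617 and 7.13 ± 0.03 in RANKL II (SD, n = 3). Sterol minus fatty acid was -1.67, -1.70 and -1.66 in the RANKL+CSRM617 libraries against -1.45, -1.40 and -1.40 in the RANKL II libraries, with no overlap. These means hold no GC correction, and Scd1, Fasn and Acss2, at 0.93, 0.68 and 0.68, weigh on the fatty acid mean. With the correction the median log2 fold changes were 0.17 in the sterol arm and 0.27 in the fatty acid arm. Summed CPM of the sterol arm was 1586 ± 21.1 in RANKL+CSRM617 and 1575 ± 19.3 in RANKL II, and that of the fatty acid arm 3226 ± 10.5 in RANKL+CSRM617 and 2606 ± 5.20 in RANKL II (SD, n = 3).

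Set side by side, 6 sterol enzymes were called higher in both comparisons, namely Mvk, Mvd, Fdft1, Sqle, Lss and Tm7sf2, and Ebp was called in neither. Of these calls, that of Mvk with RANKL was lost under 2 alternatives and that of Sqle with CSRM617 under 9. With the GC correction 9 sterol enzymes were higher in both, Hmgcs1, Idi1, Nsdhl and Hsd17b7 among them and Tm7sf2 not. Another 5, Hmgcs1, Ggps1, Cyp51, Msmo1 and Sc5d, were higher with RANKL and lower with CSRM617, and with the GC correction Ggps1, Cyp51, Msmo1 and Sc5d were. Of these, Hmgcs1, Ggps1, Msmo1 and Sc5d are under 45% GC. All tested genes under 45% GC had uncorrected median log2 fold changes of 0.32 with RANKL and -0.57 with CSRM617. In the fatty acid arm Me1, Acaca, Scd1 and Scd2 were higher in both, and Acss2 was lower with RANKL and higher with CSRM617, with or without the correction. Scap likewise was lower with RANKL and higher with CSRM617, and Stard4 higher and then lower. The share of all genes with such joint calls was not computed. In the comparisons taken singly, 28.7% of all genes tested were called higher and 28.0% lower with RANKL. With CSRM617 these shares were 35.2% and 36.2%. The difference between the comparisons was not tested, since no library or table is shared between them.

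Some levels may include reads of other genes that share sequence, as similar copies or as genes at the same locus. Of the 42-base words in their annotated transcripts, matched on both strands, Acat2 shared 40.8% with Acat3 and Tcp1, Me1 31.7%, Acaca 31.6%, Fdft1 28.5%, Fdps 27.1%, Idi1 26.0%, Hmgcs1 12.1%, Ggps1 11.2%, Scap 10.5% and Tm7sf2 10.5% with other genes, so their counts are uncertain. For Fdft1, Fdps, Hmgcs1, Scap and Tm7sf2 the gene that shared most words overlaps the same locus. A gene on the opposite strand overlaps 13 of the 32, among them Fdft1 (Ctsb), Ggps1 (Arid4b), Cyp51 (Akap9), Acss2 (Ggt7 and Gss) and Srebf1 (Rai1), and without a known strand setting reads in the overlap cannot be assigned.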

How the data were processed

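RNA of mouse small intestinal organoids was measured in 12 libraries, made after ribosomal RNA depletion and read as 42-bp pairs per the labels' protocols. The authors deposited raw gene counts in a table for each comparison, made with STAR and HTSeq 0.13.5 on mm10 (GRCm38) per the submitters' processing notes, which also name DESeq2 1.34.0. For the counting, annotation and strand setting were not given in the sources used here. The deposited normalized tables hold log2 values, found from the values themselves, for genes with at least 10 raw counts in all.

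Each comparison was fitted on its own 6 libraries by a robust quasi-likelihood fit in edgeR 4.0.16 (R 4.3.3) after filterByExpr and TMM scaling, with Benjamini-Hochberg adjustment over all genes tested and a threshold of 0.05. The code was tested on simulated data. Levels are CPM after TMM scaling. Overlap between groups was read from these levels, without the GC correction, and the share of all genes without overlap was not computed. SE is the unshrunken log2 fold change divided by the square root of F. GC offsets came from a lowess (span 0.3) of each library's log2 CPM deviation on transcript GC content in a GENCODE annotation of GRCm38, which also gave exon lengths. Replicates are separate differentiation experiments of 1 organoid line, so p-values measure the spread between these libraries, which may be technical. The 16 alternatives per comparison were RLE and upper-quartile factors, DESeq2 1.42.0, no filter, a stricter filter (at least 1 CPM in all 6 libraries), limma 3.58.1 on the deposited log2 values, a replicate block, GC offsets, both together, removal of ribosomal RNA-like loci and mitochondrial genes, and leaving out each library.

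All 32 genes could be named. From each neighbouring list, the 3 called genes with the smallest p were named, and those that did not pass where they were 5 or fewer. A gene that this rule named is not reported here. Promoter sequence had been meant for genes with an SRE only, and other choices are marked in the text. The genes, arms and lists were chosen with earlier results of these data known, so no test over a list was made.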

Additional observations from a re-analysis of the deposited data

How the results depend on the processing

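Of the 32 genes, 23 in RANKL against ENR control and 22 in RANKL+CSRM617 against RANKL II kept their direction and their side of the threshold under all 16 alternatives, and Me1 did in RANKL against ENR control under the 15 that tested it. In RANKL against ENR control, the fatty acid median was 0.49 with the stricter filter, which dropped Me1, and Srebf1 turned to 0.094 with GC offsets and 0.091 with block and offsets together. In RANKL+CSRM617 against RANKL II, the sterol median was 0.042 with upper-quartile factors, 0.063 with the stricter filter, 0.167 with GC offsets, 0.169 with block and offsets, and 0.076 to 0.125 without 1 library at a time. The fatty acid median there was 0.23 with upper-quartile factors, 0.22 with limma and 0.26 to 0.31 without 1 library at a time, and its count of enzymes called lower was 1 (Acly) with GC offsets and with block and offsets together. Values that turned sign there were Hmgcs1 (0.27 with GC offsets, 0.27 with block and offsets), Idi1 (0.51 and 0.51), Acly (-0.073 and -0.074), Acat2 (0.011 without RANKL+CSRM617 replicate 1, and -0.081 at the other end of the range without 1 library) and Elovl6 (-0.018 with upper-quartile factors, -0.017 without RANKL+CSRM617 replicate 2 and up to 0.079 without another library). The cause was not tested beyond the GC offsets.

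The labels number the experiments 1 to 3 in every group but do not say that a number marks a shared batch. Deviations of same-numbered libraries correlated by 0.02, 0.14 and 0.03 in RANKL and ENR control, and by 0.02, 0.04 and 0.06 in RANKL+CSRM617 and RANKL II, so pairing was not assumed. With the replicate block, 3893 genes were higher and 3808 lower in RANKL against ENR control, against 3897 and 3802 without it. In RANKL+CSRM617 against RANKL II the block gave 4977 and 5118, against 4980 and 5134 without it. Without offsets the block changed no call among the 32 genes. Added to the GC offsets it made Dhcr7 higher in RANKL against ENR control (0.315, edgeR adjusted p = 0.0250, against 0.306 and adjusted p = 0.0515 with the offsets alone). Depth limits Me1 in ENR control (13 counts) and Fdps and Idi1 most.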
